A study of Mus musculus with 16 samples.

Results

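The genes described here encode the proteins of the mitochondrial ribosome that carry a symbol of the form Mrpl or Mrps followed by a number, in some cases with a letter from a to c. The rule found 77 such genes among the 39017 gene rows of each deposited table, and it used no measured value. By structure, 50 of them belong to the large subunit of the mitochondrial ribosome and 26 to the small subunit. Mrps18a and Mrps30 were counted with the large subunit despite their names. Mrps36, the remaining gene, is known as a subunit of the 2-oxoglutarate dehydrogenase complex, so the label covers it by name only.

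The study compared polysome-bound mRNA of projection neurons of the prelimbic cortex (PL) with total RNA of that cortex in C57BL/6J mice, an inbred strain. In every group AAV-IV-GFPL10, a virus encoding a ribosomal protein fused to green fluorescent protein, was injected in PL. CAV-Cre, a canine adenovirus carrying Cre recombinase that is taken up at axon terminals, was injected in 1 target region: the ventral tegmental area (VTA), the nucleus accumbens (NAc) or the basolateral amygdala (BLA). The immunoprecipitate (IP) held polysomes pulled down with anti-GFP beads, and the Input was total RNA. There were 16 libraries: 2 IP and 2 Input for PL-VTA, and 3 of each for the other projections. The labels give no age or sex. They do not say whether a library came from 1 mouse or a pool, so the p-values measure the spread between these libraries, which may be technical. The tag sits on a cytosolic ribosomal protein, so the pull-down holds nuclear transcripts bound to cytosolic ribosomes. The Input contains the projection neurons together with all other cells of PL. A transcript's level in the tagged cells and the share of it on ribosomes therefore cannot be told apart.

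The mitochondrial ribosome translates the few mRNAs encoded by mitochondrial DNA, all of which specify subunits of the oxidative phosphorylation complexes. Its rRNAs come from mitochondrial DNA, while its proteins are encoded in the nucleus, made on cytosolic ribosomes and imported. Some of these proteins descend from the bacterial ribosome and others are found only in mitochondria. Neurons depend on oxidative phosphorylation for ion pumping and synaptic transmission, and defects of mitochondrial translation are a known cause of inherited brain and heart disease.

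Each value is a log2 fold change, IP over Input, with its deposited standard error (SE), and a gene was called higher or lower at an adjusted p under 0.05. Reads were listed for 23202, 23343 and 22606 genes in PL-NAc, PL-BLA and PL-VTA, and the depth of single libraries is unknown. The cell type markers of the IP were checked first. Of 10 excitatory neuron markers, 9 were higher in PL-NAc and 9 in PL-BLA in the authors' deposited tables, with medians of 0.62 and 0.73. In PL-VTA 2 were higher and 3 were lower, with a median of 0.06. Neurod6 and Nrn1, markers of cortical excitatory neurons, stood at -0.82 and -1.29 there in the authors' deposited table, so the excitatory label was not borne out evenly by the PL-VTA libraries. Astrocyte, oligodendrocyte, microglia and inhibitory neuron markers had medians between -1.36 and -3.23 in the 3 tables. The headers do not name the direction of the fold change, and the negative values of glial and mitochondrially encoded transcripts were used to read it, so their sign is no finding. All values are from bulk RNA, in which fewer cells of a type and less RNA per cell cannot be told apart.

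Transcripts of mitochondrial ribosomal proteins were moderately higher in the IP of all 3 projections on the authors' scaling, and no member was called lower. In PL-NAc 60 of the 76 members tested were called higher, beside 21.4% of all genes tested, and 0 were called lower, beside 21.7%. In PL-BLA 46 of 76 were called higher, beside 20.8% of all genes, and 0 lower, beside 20.2%. In PL-VTA 31 of 76 were called higher, beside 11.0%, and 0 lower, beside 10.5%. The PL-VTA count fell to 13, beside 5.67% of all genes, with a running median over genes of like mean count subtracted, and to 18, beside 9.46%, with one over transcript length. The changes were small. The median log2 fold change, in the order PL-NAc, PL-BLA, PL-VTA, was 0.45, 0.31 and 0.43, beside -0.03, -0.02 and 0.02 over all genes tested. Genes whose mean count lay within the 5th to 95th percentile of the members' means had medians of 0.11, 0.10 and 0.12. The members ranged from -0.10 to 1.001 in PL-NAc, from -0.11 to 0.86 in PL-BLA and from -0.09 to 1.04 in PL-VTA. The direction depended on the reference in 2 projections. Relative to the median of the excitatory neuron markers, 6 members were higher in PL-NAc, beside 2.32% of all genes, and 31 lower, beside 68.2%. In PL-BLA 0 members were then higher, beside 1.36%, and 59 of 76 lower, beside 77.6% of all genes, so the lower calls there matched the share over all genes. In PL-VTA 24 were higher, beside 8.63%, and 0 lower, beside 11.7%. How the loss of glial and interneuron transcripts from the IP bears on these values was not tested.

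**Figure D1:**
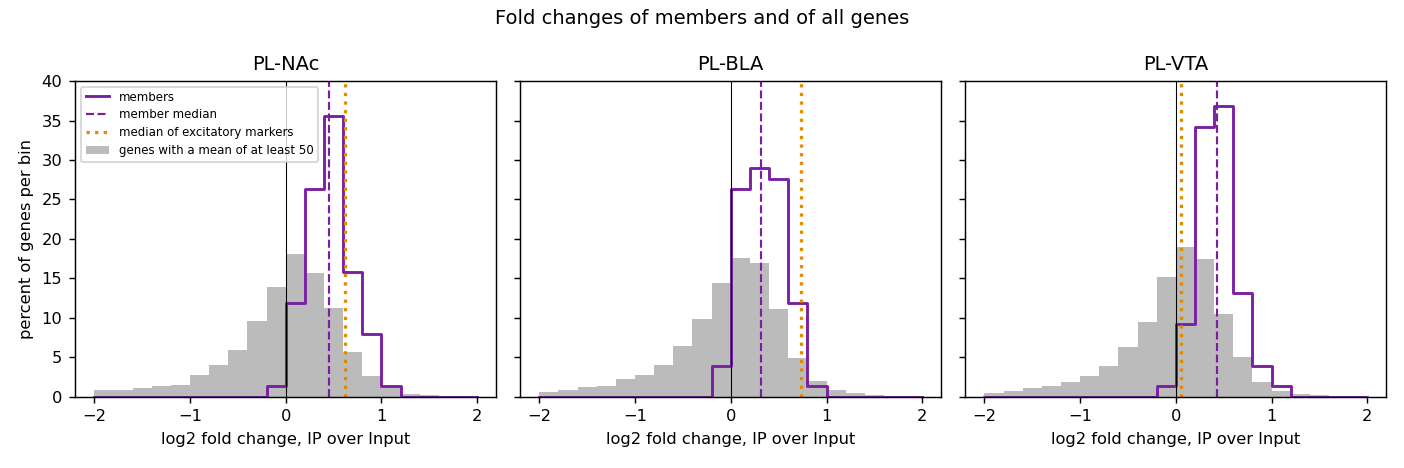
Distribution of the log2 fold change of IP over Input (horizontal axis, shown from -2 to 2) in PL-NAc, PL-BLA and PL-VTA, as the percentage of genes per bin (vertical axis), for the mitochondrial ribosomal protein genes and for all genes with a mean count of at least 50. On the authors' scaling the members lie to the right of 0 in a narrow band around medians of 0.45, 0.31 and 0.43; relative to the excitatory neuron markers the medians would be -0.17 and -0.42 in PL-NAc and PL-BLA, and above 0 in PL-VTA.

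Nearly every member lay above 0 in each table. The log2 fold change was positive in all 3 projections for 72 of the 76 members, or 94.7%, beside 36.6% of the 15425 genes tested in all 3. Members called higher in all 3 projections numbered 28, or 36.8%, beside 8.76% of all genes. A further 17 members were called in 2 projections and 19 in 1. Of those 19, 16 were called in PL-NAc alone, Mrpl1 and Mrps22 in PL-BLA alone and Mrpl17 in PL-VTA alone, which does not show that they differ between projections. The median SE of the members was 0.178 in PL-VTA against 0.0980 in PL-NAc, and the smallest change called higher was 0.42 in PL-VTA and 0.24 in PL-NAc.

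The 3 tables share no library, so each member's values were combined in an inverse-variance weighted mean, here called the common effect, with a two-sided z test adjusted over 15425 genes by the Benjamini-Hochberg method. By that test 67 of 76 members were higher, beside 31.8% of all genes, and 0 were lower, beside 30.9%. The median common effect was 0.39, which is 1.31-fold, and the range ran from -0.06 to 0.91. Relative to the excitatory neuron markers the same test gave 7 members higher, beside 3.51% of all genes, and 45 lower, beside 79.7%. Those 7 were Mrpl41, Mrpl14, Mrps33, Mrps14, Mrpl36, Mrps12 and Mrps17. All 7 lay above the marker median in PL-NAc and in PL-VTA, where that median is 0.06, but in PL-BLA only Mrpl41 of the 7 did.

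**Figure D2:**
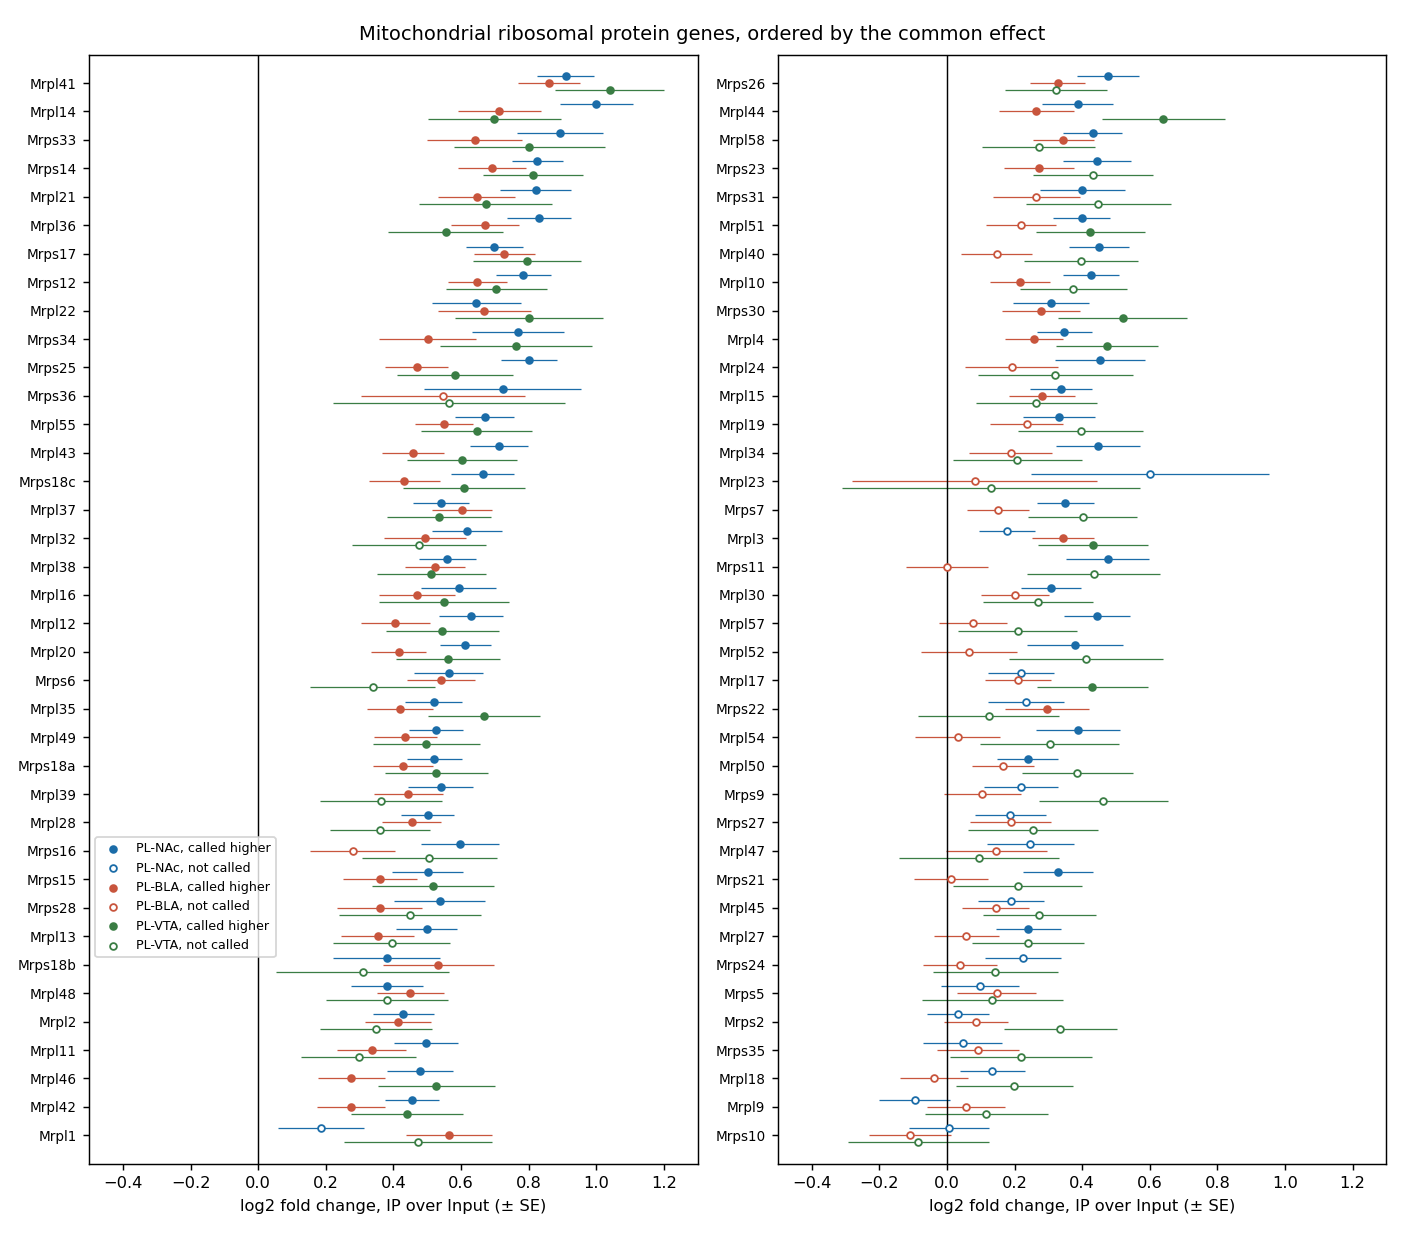
Log2 fold change of IP over Input (horizontal axis) for each of the 76 members tested (vertical axis, in 2 columns), in PL-NAc, PL-BLA and PL-VTA, ordered by the common effect over the 3 projections; bars are 1 SE, and filled points were called higher. On the authors' scaling the points lie almost wholly above 0, from Mrps10 at a common effect of -0.06 to Mrpl41 at 0.91; relative to the excitatory neuron markers the direction turns for most members in PL-NAc and PL-BLA, not in PL-VTA.

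Mrpl41, a large subunit protein without a bacterial counterpart, had the highest common effect, 0.91 (SE 0.06). For PL-NAc its log2 fold change was 0.91, for PL-BLA 0.86 and for PL-VTA 1.04 in the authors' deposited tables, with SEs of 0.09, 0.09 and 0.16. The mean normalized counts behind these values were 1442, 1436 and 1544. Mrpl14, a conserved protein at the face where the subunits join and the docking site of the assembly factor Malsu1, followed at 0.85 (SE 0.07). It stood at 1.001, 0.71 and 0.70 in the authors' deposited tables, with adjusted p-values of 3.13e-19, 5.17e-08 and 0.00332. Malsu1 itself was called higher in each projection, at 0.52, 0.38 and 0.71. Mrps12, the small subunit protein of the decoding centre, had a common effect of 0.72 and stood at 0.78, 0.65 and 0.70 in the authors' deposited tables.

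Promoters of these 3 genes are shown because Mrpl41 and Mrpl14 had the highest common effects and Mrps12 carries several of the motifs searched; Mrps12 was chosen after its values were seen. Each run holds the 250 bases before the start site of the RefSeq model (GRCm38.p6), 5′ to 3′ on the gene's strand. Capitals mark a CCAAT box or a YY1 core, read on either strand, so that ATTGG and GCCATCTT are the opposite-strand forms. 
Mrpl41 (chr2:24975099-24975348, minus strand): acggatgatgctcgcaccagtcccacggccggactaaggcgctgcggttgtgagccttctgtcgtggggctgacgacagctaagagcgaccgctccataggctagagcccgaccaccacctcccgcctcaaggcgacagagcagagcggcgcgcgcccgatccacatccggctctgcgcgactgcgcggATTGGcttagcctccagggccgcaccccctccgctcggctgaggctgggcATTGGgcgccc
Mrpl14 (chr17:45686099-45686348, plus strand): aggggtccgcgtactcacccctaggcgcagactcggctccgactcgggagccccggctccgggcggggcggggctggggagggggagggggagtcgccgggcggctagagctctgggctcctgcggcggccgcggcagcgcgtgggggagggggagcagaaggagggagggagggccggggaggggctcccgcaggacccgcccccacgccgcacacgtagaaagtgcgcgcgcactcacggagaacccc
Mrps12 (chr7:28741822-28742071, minus strand): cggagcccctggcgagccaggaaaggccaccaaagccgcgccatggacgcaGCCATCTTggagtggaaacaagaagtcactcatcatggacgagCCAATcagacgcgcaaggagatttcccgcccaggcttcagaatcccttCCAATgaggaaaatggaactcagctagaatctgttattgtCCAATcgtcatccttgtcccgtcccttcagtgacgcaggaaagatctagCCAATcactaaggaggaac
The Mrpl14 window held none of the motifs searched, while those of Mrpl41 and Mrps12 held CCAAT boxes. The YY1 core in the Mrps12 window begins at -199 and lies on the opposite strand. The gene Sars2 starts 172 bases from Mrps12 on that strand, so this core falls past the Sars2 start.

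Among small subunit proteins, Mrps33, which has no bacterial counterpart, and Mrps14, a conserved protein of the subunit's head, both had a common effect of 0.78. Mrps14 was measured with high precision, at a mean count of 2165 in PL-NAc and a log2 fold change of 0.83, with 0.69 in PL-BLA and 0.81 in PL-VTA in the authors' deposited tables. Mrps17 and Mrps34 had common effects of 0.72 and 0.66. Mrps34 is a gene in which mutations are known to cause Leigh syndrome, a disease of the brain stem and basal ganglia. Mrps25 stood at 0.64. All 5 were called higher in each projection.

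Large subunit proteins were represented along the whole range. Mrpl21 and Mrpl36, both with bacterial counterparts, had a common effect of 0.73 each. Proteins of the stalk that recruits translation factors were called by the common effect: Mrpl12 stood at 0.53 and Mrpl10, its anchor, at 0.33. Proteins around the exit of the nascent chain varied widely. Mrpl22, which lines the exit tunnel, stood at 0.68, and Mrpl24 at 0.32, Mrpl17 at 0.25 and Mrpl45, which tethers the ribosome to the inner membrane, at 0.18 were also called. Mrpl47, also at the exit site, was not called, and stood at 0.19 with an adjusted p of 0.0584 in the z test over all genes. Mrpl58, a peptidyl-tRNA hydrolase built into the large subunit that rescues stalled ribosomes, was at 0.37.

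The 3 paralogues of the bacterial protein S18 were close to each other. Mrps18c of the small subunit had a common effect of 0.57 (SE 0.06), Mrps18a of the large subunit 0.49 (SE 0.06) and Mrps18b of the small subunit 0.43 (SE 0.10). Their 95% intervals overlap, and their differences were not tested. Mrps18b was the least abundant, with a mean count of 266 per kilobase of transcript against 1990 for Mrps18a and 1215 for Mrps18c.

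Members without a call by the common effect numbered 9: Mrpl23, Mrpl47, Mrps24, Mrps5, Mrps2, Mrps35, Mrpl18, Mrpl9 and Mrps10. The small subunit proteins Mrps24 and Mrps5, which sit at the mRNA entry site, had common effects of 0.13 and 0.12. Mrps10 was lowest, at -0.06 (SE 0.08), with 0.01, -0.11 and -0.08 in the authors' deposited tables. Mrpl9 was at -0.01, Mrpl18 at 0.07, Mrps35 at 0.09 and Mrps2 at 0.10. Mrps10 had a mean count of 516 in PL-NAc and Mrps2 of 1059, so counts near those of called members lay behind these values.

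Mrpl53, the member without a test, was listed at a mean of 0 in PL-NAc and PL-VTA and at 0.142 in PL-BLA. In the GENCODE M21 annotation of GRCm38, 88.0% of its exon bases (chr6:83109040-83109939) overlap exons of Ccdc142os and Gm42688, and this count is therefore uncertain. Mrpl23, a conserved protein of the exit site, had mean counts of 30.9, 27.1 and 35.9, while its annotated pseudogene Mrpl23-ps1 had 526, 500 and 609 in the authors' deposited tables. Mrps36 had 101, 95.7 and 119 beside 182, 162 and 183 for Mrps36-ps1, and Mrpl48-ps was listed at 315, 314 and 321. Reads of these genes may have been shared between near-identical copies, so the values of Mrpl23, Mrps36 and Mrpl48 are uncertain. The common effect of Mrps36 was 0.62 and that of Mrpl23 was 0.29 (SE 0.22).

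The subunits and the evolutionary classes had close medians. The median common effect was 0.39 over 49 large subunit members, of which 45 were called higher, and 0.38 over 26 small subunit members, of which 21 were. For 45 members listed as having a bacterial homologue the median was 0.39 with 37 called. For 30 members not on that list it was 0.38 with 29 called. Mrps18a and Mrps18b, though paralogues of a bacterial protein, were counted among those 30. These are values on the authors' scaling, and relative to the excitatory neuron markers the median over all members turned to -0.17 in PL-NAc and -0.42 in PL-BLA. By projection, 41 of 49 large and 18 of 26 small subunit members were called higher for NAc, 32 and 14 for BLA, and 23 and 8 for VTA. Over all genes 31.8% were called higher by the common effect, and 21.4%, 20.8% and 11.0% for NAc, BLA and VTA. No difference between these classes was tested.

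No member passed the test of a difference between projections. For each gene the difference of the log2 fold changes was divided by its SE and read as a two-sided z, with Benjamini-Hochberg adjustment over all genes. For PL-NAc against PL-BLA 0 of 76 members were called, beside 1.55% of all genes, and 8 had an unadjusted p under 0.05, beside 8.75% of all genes, which is near the members' share. Against PL-VTA the count was 0 beside 3.36% with PL-NAc, and 0 beside 4.61% with PL-BLA, with 0 members under an unadjusted 0.05 in either pair, beside 10.7% and 11.2% of all genes. The smallest adjusted p was 0.191, 0.685 and 0.496 in the 3 pairs. Cochran's Q over the 3 tables called 0 members, beside 5.71% of all genes, and 3 members, Mrps25, Mrps11 and Mrpl57, had an unadjusted p under 0.05. A missed threshold does not show equal values: the median SE of a member's difference was 0.141 for PL-NAc against PL-BLA and 0.203 and 0.204 for the pairs with PL-VTA.

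Between PL-NAc and PL-BLA most members lay to one side. The difference, PL-NAc minus PL-BLA, was positive in 63 of 76 members with a median of 0.13, while genes with a mean of at least 50 had a median of -0.01 and were positive in 48.2%. PL-BLA minus PL-VTA was negative in 57 members with a median of -0.12, while genes with a mean of at least 50 had a median of -0.02 and were positive in 47.1%. PL-NAc minus PL-VTA was positive in 48 members with a median of 0.04, while those genes had a median of -0.03 and were positive in 45.6%. A lower median in PL-BLA than in PL-NAc was not particular to the members. Nuclear oxidative phosphorylation genes had 0.51, 0.33 and 0.54 in PL-NAc, PL-BLA and PL-VTA, and cytosolic ribosomal proteins 0.52, 0.31 and 0.27. The other way, from PL-NAc to PL-BLA, went translation factors at 0.10 and 0.31 and aminoacyl-tRNA synthetases at 0.10 and 0.21. So did assembly genes at 0.20 and 0.21 and mitochondrial DNA transcription and replication at 0.04 and 0.14. No test was made of any of these medians, and PL-NAc and PL-BLA each enter 2 of the pairs, as does PL-VTA. The reference mattered here as well. Relative to the excitatory neuron markers, 3 members were called higher in PL-NAc than in PL-BLA, beside 1.62% of all genes. Then 49 of 76 were called lower in PL-NAc than in PL-VTA, beside 44.6% of all genes, and 72 of 76 lower in PL-BLA than in PL-VTA, beside 54.3%. Those markers themselves differed, with medians of 0.62, 0.73 and 0.06 in PL-NAc, PL-BLA and PL-VTA.

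Mrps11, a small subunit protein of the platform, had the smallest p between PL-NAc and PL-BLA. Its log2 fold change was 0.48 for PL-NAc, -0.00 for PL-BLA and 0.43 for PL-VTA in the authors' deposited tables, a difference of 0.48 between the first pair (95% interval 0.14 to 0.81, p = 0.00556, adjusted p = 0.191 by the Wald z over all genes). Mrps25 followed at 0.80 against 0.47 and Mrpl57 at 0.44 against 0.08, with adjusted p-values of 0.234 and 0.244 by the same test. In the opposite direction Mrpl1 stood at 0.19 in PL-NAc and 0.56 in PL-BLA, a difference of -0.38. Mrps11 (chr7:78783119-78792989, plus strand) overlaps Mrpl46 (chr7:78775236-78783531, minus strand) by 413 bases at their 5′ ends. The library chemistry does not mark the strand, so reads from that stretch cannot be assigned to either gene. Mrpl46 stood at 0.48, 0.28 and 0.53.

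**Figure D3:**
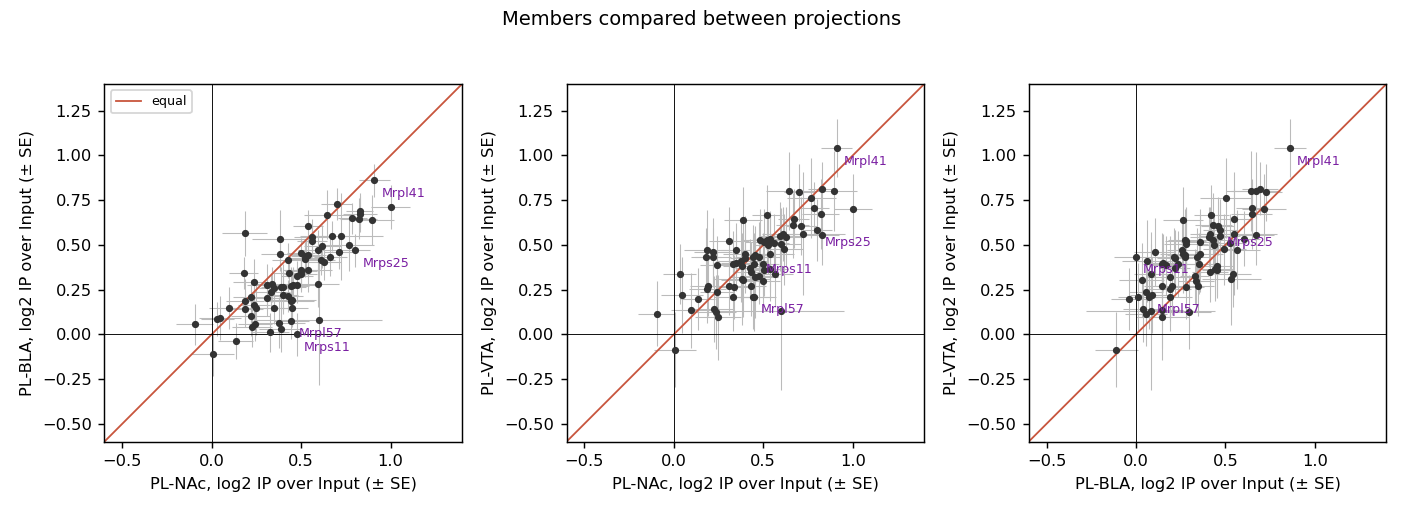
Log2 fold change of IP over Input of each member in 1 projection (horizontal axis) against another (vertical axis), in 3 panels, with bars of 1 SE and the line of equality. On the authors' scaling 63 of 76 members lie on the PL-NAc side of the line in the panel with PL-BLA, and no single member passed the test of the difference; relative to the excitatory neuron markers 49 and 72 members were called lower in PL-NAc and PL-BLA than in PL-VTA, beside 44.6% and 54.3% of all genes.

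Members kept much of their order from table to table. Pearson's r across the 76 members was 0.78 between PL-NAc and PL-BLA, 0.77 between PL-NAc and PL-VTA and 0.79 between PL-VTA and PL-BLA, with Spearman's rho of 0.76, 0.74 and 0.75. These are correlations across genes, which are not independent replicates, and all genes with a mean of at least 50 gave r of 0.93, 0.84 and 0.78.

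In level, the members were mid to high in abundance and took a small share of each library. Their median mean count, in the same order of projections, was 1015, 968 and 1042, and together they held 0.501%, 0.458% and 0.502% of the mean counts. Per kilobase of the longest annotated transcript, averaged over the 3 tables, Mrpl20 was highest with a mean count of 2982, followed by Mrps12 with 2442, Mrpl42 with 2417, Mrpl28 with 2320 and Mrps18a with 1990. Lowest after Mrpl53 were Mrpl23 with 42.5, Mrpl47 with 118, Mrpl1 with 127 and Mrps5 with 138. These levels average IP and Input. Mrpl20, the most abundant, had a common effect of 0.53.

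The members' transcripts are short. Coding length ran from 261 to 1326 bases with a median of 594, against 1410 over 11224 protein-coding genes with a mean of at least 50. Members at or under the median coding length had a median common effect of 0.45 and longer ones of 0.34 on the authors' scaling; relative to the excitatory neuron markers the median over all members was -0.20. The 1328 other genes at or under the members' median coding length had a median of 0.24. Across the 76 members the common effect and log10 coding length had a Pearson's r of -0.33 and a Spearman's rho of -0.29, and across 11221 protein-coding genes -0.09 and -0.18. These are descriptions across genes, and the part of length in the members' values was not tested beyond this.

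**Figure D4:**
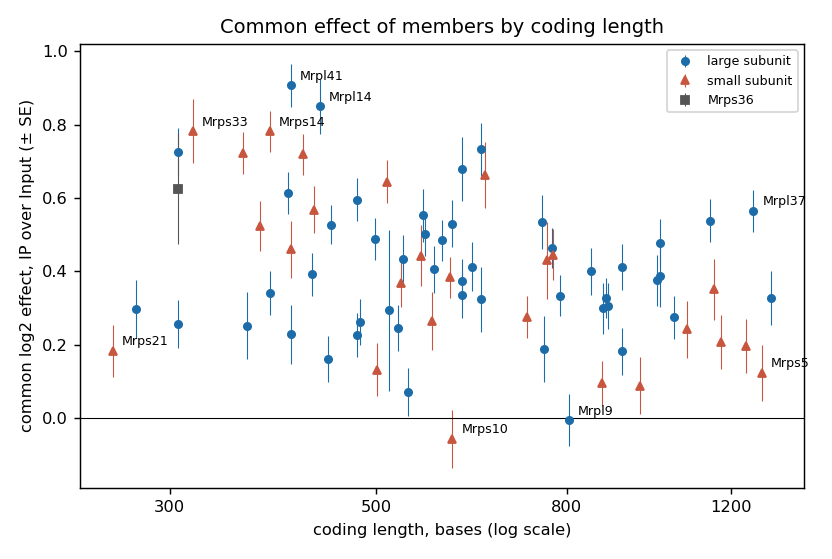
Common effect over the 3 projections (log2, vertical axis) against coding length in bases (horizontal log axis) for the 76 members tested, with bars of 1 SE and separate symbols for the large subunit, the small subunit and Mrps36. On the authors' scaling the members lie mostly above 0, with medians of 0.45 for the shorter and 0.34 for the longer members; the direction of most turns relative to the excitatory neuron markers in PL-NAc and PL-BLA, not in PL-VTA.

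Related gene lists were read on the same scaling. Of 5 mitochondrial ribosomal proteins with other kinds of names, 4, 5 and 3 were higher in the order PL-NAc, PL-BLA, PL-VTA, with medians of 0.46, 0.33 and 0.48 close to those of the members on the same scaling. Chchd1 stood at 0.72, 0.33 and 0.81 and Dap3, a GTP-binding protein of the small subunit, at 0.46, 0.42 and 0.48 in the authors' deposited tables, and each was called higher in every projection. Nuclear genes of oxidative phosphorylation, the complexes this ribosome supplies, were higher in 71 of 81, 62 of 83 and 62 of 81 in that order, with medians of 0.51, 0.33 and 0.54. Lower among them were 3, 3 and 1, and Cox6a2, a heart and muscle type subunit of cytochrome c oxidase, was at -2.76 in PL-BLA and -2.83 in PL-VTA in the authors' deposited tables. Cytosolic ribosomal proteins were higher in 51 of 78, 30 of 78 and 11 of 77, with 0, 2 and 0 lower and medians of 0.52, 0.31 and 0.27, and the 14.3% in PL-VTA is near the 11.0% of all genes. Their median mean counts were only 262, 239 and 252, beside 1015, 968 and 1042 for the members. Whether their reads were shared with near-identical copies was not tested, so the values of this list are uncertain. In PL-NAc and PL-BLA the excitatory neuron markers, at 0.62 and 0.73, stood above the medians of all of these lists.

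The other genes of mitochondrial gene expression are given beside the share over all genes: on the authors' scaling 21.4%, 20.8% and 11.0% of all genes were higher in the order PL-NAc, PL-BLA, PL-VTA, and relative to the excitatory neuron markers the medians of these lists were below 0 in PL-NAc and PL-BLA. Of 25 genes for assembly and rRNA modification 10, 9 and 4 were higher in the same order, or 40%, 36% and 16%, with 0 lower. Trub2, a pseudouridine synthase, stood at 0.86, 0.83 and 0.76 and Rbfa, which matures the small subunit, at 0.76, 0.67 and 0.60 in the authors' deposited tables. Of 16 translation factors 4, 6 and 2 were higher, or 25%, 37.5% and 12.5%, which in PL-NAc and PL-VTA is near the share over all genes, and 1 was lower in each projection. Slirp, which stabilises mitochondrial mRNAs with Lrpprc, stood at 0.60, 0.30 and 0.71, while Guf1, a back-translocating GTPase, was lower at -0.90, -0.77 and -0.81 in the authors' deposited tables. Of 17 mitochondrial aminoacyl-tRNA synthetases 4, 4 and 1 were higher, or 23.5%, 23.5% and 5.88%, shares near or below those over all genes. Lars2, the leucine enzyme, led them at 1.08, 1.01 and 1.36 in the authors' deposited tables. Of 10 genes of mitochondrial DNA transcription and replication 0, 1 and 0 were called, all higher, and Tfam, which packages mitochondrial DNA, stood at 0.19, 0.11 and 0.11. No difference between these lists and the members was tested.

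**Figure D5:**
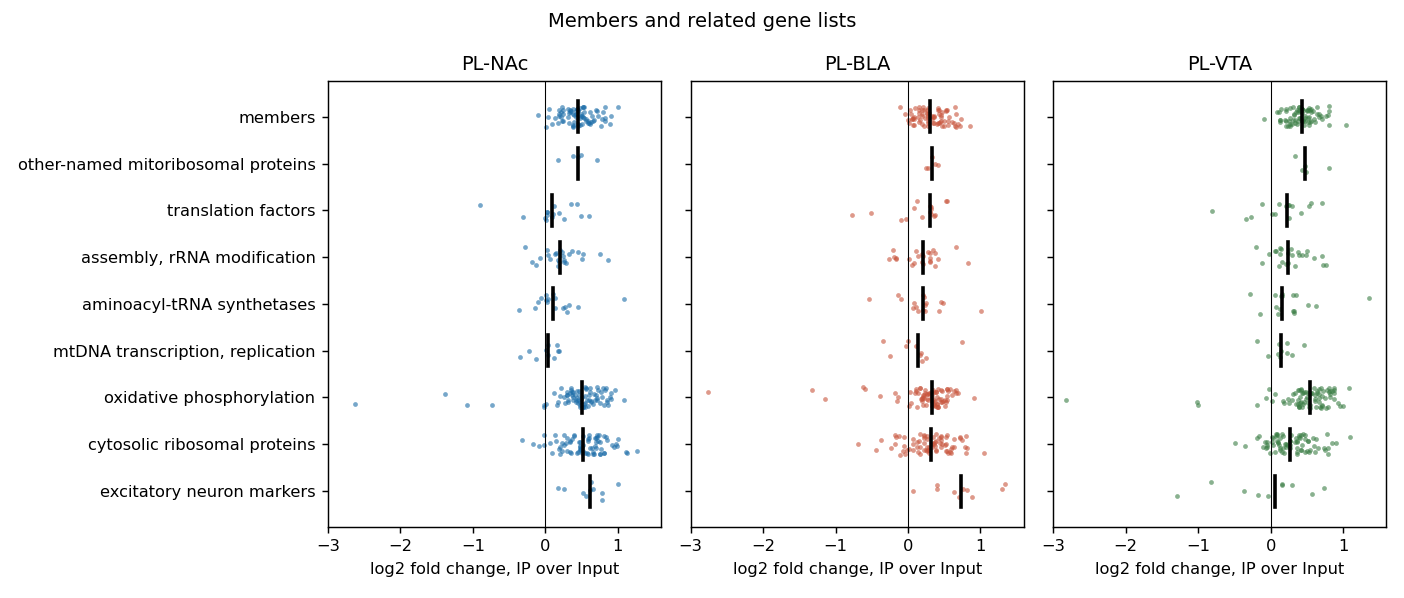
Log2 fold change of IP over Input (horizontal axis) of the mitochondrial ribosomal protein genes and of related gene lists (vertical axis) in PL-NAc, PL-BLA and PL-VTA, with 1 point per gene and a bar at the median of each list. On the authors' scaling the medians of members, oxidative phosphorylation genes and cytosolic ribosomal proteins lie between 0.27 and 0.54; in PL-NAc and PL-BLA all lie below the excitatory neuron markers at 0.62 and 0.73, and in PL-VTA above them at 0.06.

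The RNA that these proteins bind went the other way. Both mitochondrial rRNAs were lower in each projection, with medians of -6.65, -6.59 and -5.25, and all 8 mitochondrially encoded mRNAs tested were lower, with medians of -6.21, -5.09 and -3.19. These transcripts stay inside mitochondria and are translated there, and their sign was used to read the direction of the tables.

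In the genome the members were spread over 17 chromosomes. In GENCODE M21, 32 of 77 members share exon bases with another gene on either strand, and the counts of such genes are uncertain without strand. Among the 45 without such overlap, 35 were higher for PL-NAc, 26 for PL-BLA and 17 for PL-VTA, on the authors' scaling. Beside these stand 21.4%, 20.8% and 11.0% of all genes. Relative to the excitatory neuron markers the median over all members turned in PL-NAc and PL-BLA, not in PL-VTA. Members that lie head to head with another protein-coding gene, with start sites at most 1000 bases apart and no overlap, numbered 18, or 23.4%. Beside this stand 6.76% of 21951 annotated protein-coding genes, counted whatever their expression. No such share was computed for genes with a mean of at least 50. Such neighbours are transcribed in opposite directions from a shared stretch. Of their 18 partners, 5 were higher and 4 lower for PL-NAc, 3 and 2 for PL-BLA, and 1 and 1 for PL-VTA. Over all genes 21.4% were higher and 21.7% lower for PL-NAc, 20.8% and 20.2% for PL-BLA, and 11.0% and 10.5% for PL-VTA. The partners' count of higher genes for PL-NAc was somewhat above that share, and their other counts were near or below theirs. The partners' medians were 0.13, 0.08 and 0.16, beside 0.44, 0.32 and 0.39 for the members paired with them.

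Among single pairs some neighbours were alike and some were not. Mrpl32 and Psma2, a proteasome subunit whose start lies 75 bases away, stood at 0.62 and 0.46 in PL-NAc in the authors' deposited table. Mrpl49 lies 59 bases from Fau, which encodes a cytosolic ribosomal protein, and they stood at 0.53 and 0.69. Fau had a mean count of only 143 there. Mrps12 lies 172 bases from Sars2, a mitochondrial seryl-tRNA synthetase at 0.33. Mrpl40 lies 175 bases from Hira, a histone chaperone gene, and here the signs were opposite: Mrpl40 stood at 0.45, 0.15 and 0.40 and Hira at -0.60, -1.10 and -0.76 in the authors' deposited tables. Hira was called lower in each projection, and Mrpl40 was called higher in PL-NAc.

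Promoters from RefSeq (GRCm38.p6), 250 bases before and 50 after the start site, matched 68 members by symbol. Motifs were searched on both strands. The YY1 core AAGATGGC occurred in 12 member promoters, 17.6%, beside 3.27% of 16522 promoters and 5.07% of 8779 promoters of genes with a mean of at least 50. The ETS core CCGGAAGT occurred in 10, 14.7%, beside 5.54% and 8.74%. The NRF1 core occurred in 3, 4.41%, beside 1.38% and 2.20%. The CCAAT box occurred in 26, 38.2%, beside 38.8% and 38.7%, and the TATA box TATAAA in 4, 5.88%, beside 12.9% and 6.30%. The median common effect was 0.49 in members with the YY1 core and 0.38 in those without, and 0.26 and 0.41 with and without the ETS core. These are matches of letters, and binding was not measured. The YY1 matches of Mrps12 at -199, Mrpl32 at -242, Mrps11 at -107 and Mrpl36 at -30 are on the opposite strand. Those of Mrps12 and Mrpl32 fall past the starts of the head-to-head neighbours Sars2 and Psma2, which lie 172 and 75 bases away. Mrps11 and Mrpl36 also overlap a neighbouring gene, Mrpl46 and Ndufs6. How far sequence of neighbouring genes enters the members' motif shares was not tested.

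In 8 members, 11.8%, the YY1 core lay on the gene's strand within 50 bases after the start site, beside 1.46% of all promoters and 2.52% of those of genes with a mean of at least 50. These are the sites behind most of the YY1 matches, and they are shown in windows of 30 bases with the core in capitals.
Mrpl37 (chr4:107066822-107066851, minus strand): ctgcacgggcaAAGATGGCggcgtccaggt
Mrpl35 (chr6:71823743-71823772, minus strand): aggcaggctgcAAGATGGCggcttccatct
Mrpl49 (chr19:6057721-6057750, minus strand): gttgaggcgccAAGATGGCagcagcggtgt
Mrps18a (chr17:46111004-46111033, plus strand): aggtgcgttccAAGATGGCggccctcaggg
Mrpl42 (chr10:95501904-95501933, minus strand): cagattgaagcAAGATGGCgagcgcgcggt
Mrps7 (chr11:115604147-115604176, plus strand): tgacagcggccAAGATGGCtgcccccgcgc
Mrps27 (chr13:99344789-99344818, plus strand): tggtgcgctccAAGATGGCggctcccatgg
Mrps24 (chr11:5707652-5707681, minus strand): cgggtcgcgccggcccAAGATGGCgtggtc
In 6 of the 8, all but Mrpl37 and Mrpl42, the ATG within the core is a start codon annotated in GENCODE M21, so the motif spans the first codons of the protein. Mrpl37, Mrpl35, Mrpl49 and Mrps18a had log2 fold changes of 0.54, 0.52, 0.53 and 0.52 in PL-NAc in the authors' deposited table. Mrps27 and Mrps24 had 0.19 and 0.22 there and were not called, so members with the same core at the start differed in their values.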

How the data were processed

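Per the labels' protocols, cDNA came from the SMARTer Ultra Low RNA kit and libraries from Nextera XT. The submitters' processing notes name STAR 2.3, featureCounts, DESeq2 and the builds mm10 and GRCm38. Neither annotation release nor model formula is given in the sources used here. The deposited tables, 1 per projection, hold the mean signal (normalized counts), the log2 fold change with its SE, the Wald score, and p-values before and after adjustment, per the file headers. The score equals the log2 fold change over its SE in the deposited values. Genes under a mean of 1.82, 2.39 and 8.58 in PL-NAc, PL-BLA and PL-VTA have no deposited adjusted p-value and were not called. The log2 fold changes appear shrunken toward 0 and understate changes of low genes. The total count of each library is unknown. Rows without a symbol held 0.240%, 0.227% and 0.235% of the mean counts.

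Differences between projections, common effects and Cochran's Q were computed with Python 3.11.15 and scipy 1.17.1 and tested on simulated data. Lengths, positions and overlaps came from GENCODE M21, which matched 37607 of 39017 genes. A running median used 501 genes. The plan named a count model in case counts per library were present; the comparison tables were used instead. The members, the lists and the rule for names were chosen with earlier results of these data known. Names follow that rule: members called in any test, the 5 highest and 5 lowest per length, members without a test, and the 3 smallest adjusted p-values of each list. Malsu1, the pseudogenes and the neighbouring genes were named after their values were seen.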

Additional observations from a re-analysis of the deposited data

How the results depend on the processing

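The choice of reference had the widest effect. Centring on the excitatory neuron markers shifted all values by 0.62, 0.73 and 0.06 in PL-NAc, PL-BLA and PL-VTA. It gave 6 members higher and 31 lower with a median of -0.17 in PL-NAc, and 0 higher and 59 lower with a median of -0.42 in PL-BLA. Of all called genes, 3.29% and 1.72% were then higher, against 49.6% and 50.7%. It gave 3, 49 and 72 members that differed between PL-NAc and PL-BLA, PL-NAc and PL-VTA, and PL-BLA and PL-VTA. By the z test 45 members were called lower after this centring, beside 79.7% of all genes. The common effect changed sign, with a call before or after centring, in 60 of 76 members. Among those named, it became -0.26 for Mrpl10, -0.054 for Mrpl12, -0.34 for Mrpl17, -0.52 for Mrpl18, -0.074 for Mrpl20, -0.26 for Mrpl24, -0.40 for Mrpl45, -0.39 for Mrpl47, -0.34 for Mrpl57 and -0.22 for Mrpl58. In the small subunit and Mrps18a it became -0.31 for Mrps11, -0.11 for Mrps18a, -0.15 for Mrps18b, -0.025 for Mrps18c, -0.50 for Mrps2, -0.45 for Mrps24, -0.50 for Mrps35 and -0.47 for Mrps5. Mrpl21, Mrpl22, Mrps25, Mrps34 and Mrps36 kept their direction there without a call. Mrpl12, Mrpl20, Mrps18a, Mrps18b and Mrps18c changed sign without a call after centring. Mrpl18, Mrpl47, Mrps2, Mrps24, Mrps35 and Mrps5 had no call before it.

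Subtracting a running median over genes of like mean count gave medians of 0.32 in PL-NAc and 0.19 in PL-BLA, and 13 members higher in PL-VTA, where 35.0% of all called genes were higher against 51.2%. A running median over genes of like transcript length gave 18 members higher in PL-VTA. Members without exon overlap numbered 35, 26 and 17 higher because 45 were tested; this and the running medians of the median were chosen after seeing the data. Centring on all genes left 60 members with a higher common effect, and Mrpl45 lost its call there. A threshold of 0.01, no filter, a minimum mean of 50, unweighted means and, for the common effect, leaving out PL-VTA moved no count of members by over 1.5 times. No paired analysis was possible because the deposited tables hold no values per library, and leaving out single replicates was not run for the same reason.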
